A study of Mus musculus with 1152 samples.

Results

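The genes described here were 10 immediate-early genes, Fos, Fosb, Jun, Junb, Jund, Atf3, Egr1, Ier2, Ier3 and Dusp1, taken from a table of 23168 genes and followed over single lymphatic endothelial cells (LECs). They were chosen by family membership together with an earlier look at the same table, in which several of them varied between cells by more than genes of like level. Those values chose the genes and are therefore given as a description only. In the variance of the natural log level beyond a smooth trend on the mean, Fos ranked 1, Atf3 ranked 3, Junb ranked 7, Jun ranked 12, Egr1 ranked 19 and Dusp1 ranked 21 among the 5279 genes that were found in 30% or more of the cells. Fosb ranked 75, Ier3 ranked 83, Ier2 stood lower still, and Jund ranked 4701, so Jund was here as a family member and not for its spread.

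The cells were isolated from aged c57bl/6 mice of both sexes, from the lymphatic plexus of the nasopharynx (NPLP). The nasopharyngeal mucosa was pooled over animals, digested with collagenase and dispase, and sorted for CD31 and podoplanin (PDPN), markers of endothelial and of lymphatic endothelial cells. Single cells were then sequenced by Smart-seq3, which covers transcripts over their full length. That was the 1 group of the study used here, with no genotype or treatment compared. The labels tie no cell to an animal, so the data are 1 pooled sample without replicates and no test between groups was possible. Spreads given below are between cells, not between mice.

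Immediate-early genes are transcribed within minutes of a stimulus without new protein synthesis, because the factors that switch them on are already present in the cell. Fos and Fosb encode leucine zipper proteins that bind DNA as partners of the Jun proteins (Jun, Junb and Jund) in the AP-1 complex. Atf3 encodes a stress-induced member of the related ATF/CREB family, Egr1 encodes a zinc-finger transcription factor, Ier2 and Ier3 encode small early-response proteins, and Dusp1 encodes a phosphatase that switches off MAP kinases and so feeds back on the signal. Most of these messengers are short-lived. In endothelial cells they respond to growth factors, flow and injury, and they are also well known to rise while a tissue is being digested into single cells.

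The sorted identity was checked first. The 8 LEC identity genes, among them Prox1 and Flt4, had a median detection share of 96.95%. Of 6 genes listed for blood endothelium, several were also widespread: Emcn was detected in 96.19% of cells, Aqp1 in 96.04%, Plvap in 65.9%, Cd34 in 35.5%, Vwf in 10.4% and Flt1 in 2.44%. Of 3 epithelial genes, Epcam and Krt18 were found in 0 cells, where a count of 0 leaves room for 3 cells or a share of 0.457%, and Krt8 was found in 4 cells. The 5 haematopoietic genes were detected in 0.915% (Ptprc) to 12.8% (Cd68) of cells. Of 5 fibroblast genes Dcn was detected in 30.03% and the others in 1.68 to 2.44%, and the mural genes in 0.457 to 3.51% and the glial genes in 1.68 to 4.57%. Depth ranged from 7046 to 10727631 reads per cell with a median of 148202.5. Detection shares are therefore given at full depth and again after random thinning of every cell to 20000 reads, which left out the 88 cells that were shallower. Exact (Clopper-Pearson) intervals cover counting error only.

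The genes share a compact structure and, for most of those with a sequence at hand, a short element just upstream of the start. The principal transcripts had a median of 2 exons and 1987 bases, against 10 exons and 3069.5 bases for 5038 other coding genes of the same minimum detection. All 10 had at most 4 exons, as did 16.1% of the other genes, and Jun, Junb, Jund and Ier2 had 1. RefSeq promoter windows (GRCm38.p6) were at hand for 8 of the 10 genes, all but Egr1 and Ier2. The letters TGACG, the core of the element bound by CREB and ATF proteins, lay on either strand in the 250 bases upstream of Fos, Fosb, Junb, Atf3 and Dusp1, and Jun carried the 8-letter form TGACNTCA, which Dusp1 carried as well. Among the windows of 27025 genes, 17.9% held TGACG and 7.59% held TGACNTCA, and the 2 motifs overlap where N is G. The windows of the genes with the highest levels or the tightest covariation are shown 5′ to 3′, ending at the base before the RefSeq start, or for Dusp1 before the more upstream GENCODE start. Capitals mark TGACG or its complement CGTCA, TGACNTCA and, on the coding strand, TATAAA.
Fos, chr12:85473640-85473889, plus strand: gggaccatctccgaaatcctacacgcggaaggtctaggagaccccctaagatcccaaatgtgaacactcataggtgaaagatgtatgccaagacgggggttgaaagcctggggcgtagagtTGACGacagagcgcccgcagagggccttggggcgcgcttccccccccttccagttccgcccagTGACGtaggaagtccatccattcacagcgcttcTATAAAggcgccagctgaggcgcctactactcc
Jun, chr4:95052223-95052472, minus strand: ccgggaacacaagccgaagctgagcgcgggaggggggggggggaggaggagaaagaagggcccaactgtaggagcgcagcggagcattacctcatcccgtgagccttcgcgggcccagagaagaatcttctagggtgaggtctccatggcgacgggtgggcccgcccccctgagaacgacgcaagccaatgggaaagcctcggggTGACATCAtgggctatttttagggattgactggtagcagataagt
Junb, chr8:84978749-84978998, minus strand: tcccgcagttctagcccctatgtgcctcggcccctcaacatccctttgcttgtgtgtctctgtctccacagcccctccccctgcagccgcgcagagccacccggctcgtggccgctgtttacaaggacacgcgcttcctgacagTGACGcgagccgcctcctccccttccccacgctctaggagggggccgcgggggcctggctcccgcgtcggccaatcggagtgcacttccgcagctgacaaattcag
Atf3, chr1:191183334-191183583, minus strand: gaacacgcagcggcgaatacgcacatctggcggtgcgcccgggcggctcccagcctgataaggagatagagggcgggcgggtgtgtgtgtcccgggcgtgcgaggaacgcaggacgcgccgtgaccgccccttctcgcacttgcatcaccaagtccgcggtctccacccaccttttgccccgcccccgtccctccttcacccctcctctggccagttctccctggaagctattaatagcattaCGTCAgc
Dusp1, chr17:26508520-26508722, minus strand: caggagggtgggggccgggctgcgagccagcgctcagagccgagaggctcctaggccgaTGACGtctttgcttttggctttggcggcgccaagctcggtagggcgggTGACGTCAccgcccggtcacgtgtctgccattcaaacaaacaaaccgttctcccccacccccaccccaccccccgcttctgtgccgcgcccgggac

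In these windows the TGACG nearest the RefSeq start began 66 bases upstream in Fos, further out in Junb, and 7 bases upstream in Atf3, where it lies on the opposite strand. The GENCODE start of Atf3 also lies 7 bases upstream of the RefSeq start, so by that model the match falls inside the transcript. The Jun element began 45 bases upstream, and Dusp1 held the full palindrome in the middle of its window. Fos was the only one of the 8 genes with TATAAA, at 33 bases upstream, a motif found in 8.12% of all windows. The AP-1 letters TGANTCA were in 0 of the 8 windows and in 6.87% of all, and the CArG box, the serum response element core, was in 0 of 8 and in 1.4%. The GCGNGGGCG motif of EGR proteins was in 1 of 8, Fosb, and in 4.65% of all. These matches describe letters in a short window and not binding. Letters further upstream, or near Egr1 and Ier2, were not searched. The motifs with a count of 0 of 8 are rare in all windows, so nothing is read from their absence. The RefSeq window of Jund lies 1210 bases from the GENCODE start, so its count may not refer to the start in use.

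The transcripts also carried AU-rich letters in their 3′ untranslated regions, the class of element through which short-lived messengers are destabilised. The pentamer ATTTA occurred in 9 of the 10 genes, all but Ier2, and in 71.4% of 4769 other coding genes, at a median of 2.885 copies per kb against 1.41. The nonamer TTATTTATT occurred in Fos and Dusp1, 2 of 10, and in 7.4% of the other genes. The densest stretches of Fos, Dusp1 and Ier3 are shown in 30 bases each from the GENCODE M21 transcripts, with ATTTA in capitals.
Fos: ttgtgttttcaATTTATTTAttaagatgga
Dusp1: agctggtccttATTTATTTAacacccccct
Ier3: ctaattaatATTTAtgtATTTAtgtatatc

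At full depth each of the 10 genes was found in a majority of the cells, and at the thinned depth 8 of them were, all but Ier2 and Jund. The highest share of a cell's reads on 1 gene ran from 0.043% for Jund to 9.64% for Fos. Levels are natural logs (ln) of reads per 10000 with 1 added. Fos ran from 0 to 6.87 ln with a median of 3.89 and quartiles of 1.89 and 4.82. It was detected in 99.5% of cells (interval 98.67 to 99.91%), all but 3, and in 93.7% after thinning. The cell with the most Fos had 963.99 reads per 10000 from that gene on the linear scale.

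The second Fos protein was expressed at a lower level. Fosb ran from 0 to 4.17 ln with a median of 1.06 and was detected in 85.5% of cells, or 68.3% after thinning. A Fosb level above 1 ln was reached in 51.5% of cells, and a Fos level above 1 ln in 83.5%.

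Among their Jun partners, Jun and Junb were found in nearly all cells at full depth and Jund in far fewer. Jun ran from 0 to 4.95 ln with a median of 2.37 and was detected in 97.3% of cells, or 88.6% after thinning. Junb ran from 0 to 5.85 ln with a median of 2.72 and was detected in 97.7%, or 86.6% after thinning. Jund, which is known for steady rather than induced expression, ran from 0 to 1.67 ln with a median of 0.035 and was detected in 54.3% of cells, or 30.8% after thinning. It passed 1 ln in 2.74% of cells.

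Atf3 spread about as widely as Fos, with quartiles of 0.425 and 3.37 ln around a median of 2.09 and a highest value of 5.43. It was detected in 95.9% of cells, which fell to 76.2% after thinning, so that many of its low values rested on few reads. Egr1 ran from 0 to 4.97 ln with a median of 1.60 and was detected in 91.2%, or 74.5% after thinning. The early-response genes were lower. Ier2 ran from 0 to 3.10 ln with a median of 0.231 and was detected in 62.96% of cells, or 48.6% after thinning. Ier3 ran from 0 to 3.83 ln with a median of 0.816 and was detected in 80.8%, or 64.3% after thinning. Dusp1, the feedback phosphatase, ran from 0 to 5.48 ln with a median of 1.87 and was detected in 95.7%, or 84.9% after thinning.

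**Figure D1:**
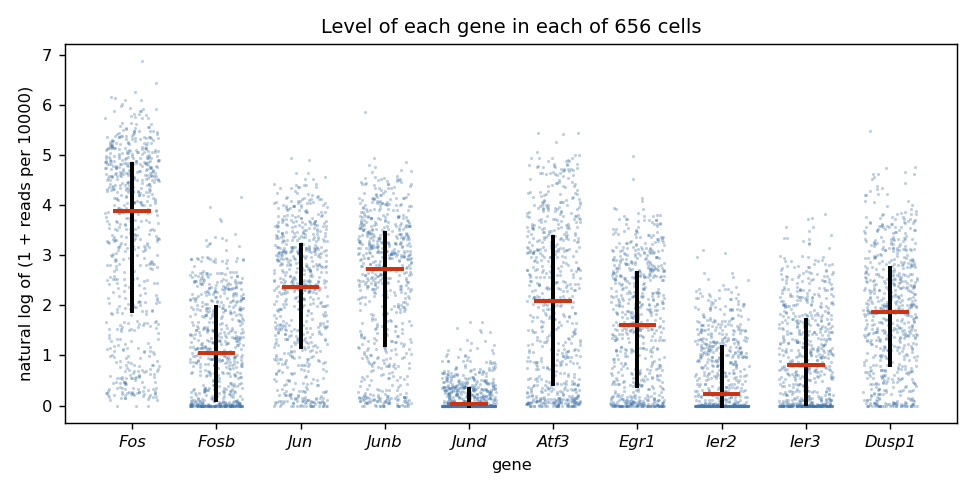
Each point is 1 cell, the vertical axis is the natural log of reads per 10000 with 1 added, red bars are medians and black bars the quartiles. Fos reaches 6.87 with a median of 3.89, whereas Jund stays at or below 1.67 with a median of 0.035.

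To compare levels between genes, linear levels were divided by the length of the principal transcript. In mean reads per 10000 per kb the order was Fos (37.7), Junb (12.03), Atf3 (11.2), Dusp1 (5.97), Jun (5.33), Ier3 (3.18), Egr1 (1.96), Fosb (1.13), Ier2 (1.01) and Jund (0.176). The cells spread so widely that each gene's quartile range overlapped that of its neighbour in this order. For Fos the quartiles were 2.66 and 58.1 reads per 10000 per kb, and for Junb they were 1.31 and 16.7. Within single cells Fos was the highest of the 10 ln levels in 70.12% of cells, followed by Dusp1 in 49 cells and by Junb and Atf3 in 43 cells each. A minority of cells held much of the messenger: the tenth of the cells with the most of a gene, 66 cells, held from 37.2% (Fos) to 54.1% (Jund) of its summed level.

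The genes were usually present together. All 10 genes were detected in 34.3% of cells (interval 30.67 to 38.07%), and at least 8 in 80.2% (interval 76.92 to 83.17%). After thinning the share with at least 8 was 57.6%, interval 53.39 to 61.67%, so this count depended on depth. At most 5 genes were detected in 27 cells. In 1 cell none was, although that cell had 245682 reads and 3318 detected genes.

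The mean ln level of the 10 genes, called the early-gene mean below, had 2 humps over the cells. It ran from 0 to 3.72 with a median of 1.81 and quartiles of 0.796 and 2.39. In steps of 0.25 ln the number of cells reached 74 between 0.25 and 0.5, fell to 31 between 1 and 1.25 and rose to 85 between 2 and 2.25. At the thinned depth the same steps held 65, 28 and 62 cells. The 10 genes together took from 0 to 10.9% of a cell's reads, with a median of 1.35% and quartiles of 0.228 and 2.62%. On this ln scale, cells of the lower and of the upper hump thus stood side by side in the same pool, with fewer cells between them. The count was not repeated on another scale, so the humps are not read as 2 kinds of cell.

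**Figure D2:**
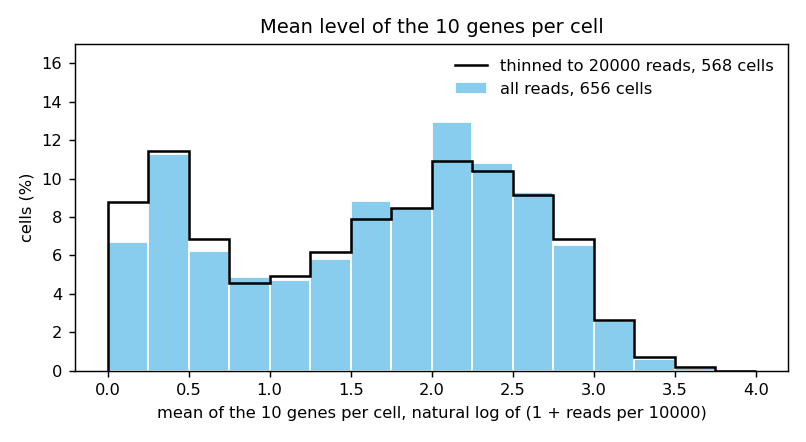
Bars give the percentage of cells in each step of 0.25 in the mean ln level of the 10 genes, and the black outline gives the cells thinned to 20000 reads. The first peak lies between 0.25 and 0.5 (74 cells) and the second between 2 and 2.25 (85 cells), with 31 cells between 1 and 1.25.

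**Figure D3:**
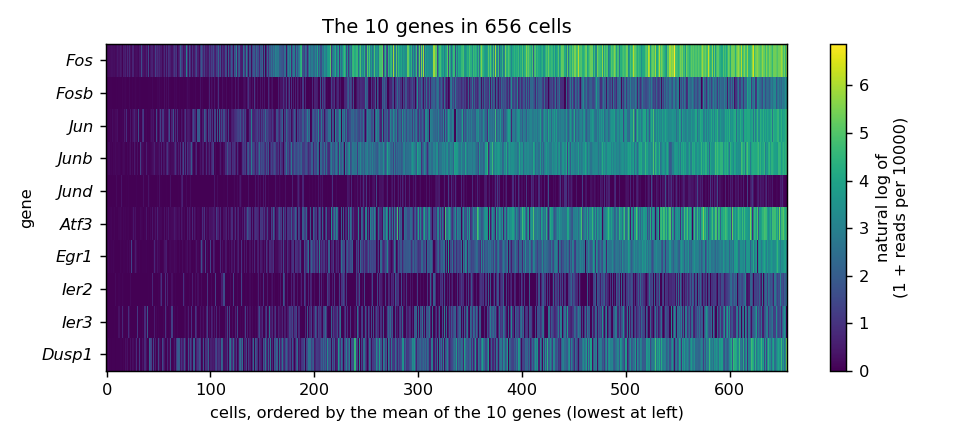
Columns are cells ordered by the mean of the 10 genes, rows are the genes, and colour is the ln level. The order uses the plotted values, so the rise from left to right is built in. Fos is the brightest row, up to 6.87, and Jund stays at or below 1.67.

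The levels rose and fell together from cell to cell. Spearman's rho was above 0 for 45 of 45 pairs over the cells, with a median of 0.466. Of the 45 pairs, 32 had a rho of at least 0.4, against 0.0115% of the 13931281 pairs among genes of the minimum detection, whose median rho was 0.0375. The genes followed here were chosen in part for their spread between cells. The pairs among genes at large were not matched to them in level or spread, so nothing is read from that contrast. The cells share a pool and a library preparation, and differ in depth, so the rho values are descriptions without a p-value. Within each of the 5 clusters described below the median rho of the pairs was between 0.398 and 0.538.

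The tightest pairs joined the transcription factors. Junb and Egr1 had a rho of 0.777, Fos and Jun 0.761, Jun and Junb 0.751, and Fos and Junb 0.737. Atf3 followed Junb most closely, at 0.73, and so did Fosb, at 0.717. Dusp1 followed Junb at 0.605 and Jun at 0.604. Each pair under 0.4 held Jund or Ier2 or Ier3, down to 0.153 for Jund with Ier3.

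When each gene was set against the mean of the other 9, Junb had the highest rho (0.858), followed by Egr1 (0.828), Jun (0.826), Fos (0.799), Atf3 (0.755) and Fosb (0.739). Dusp1 had 0.622, Ier2 0.519, Ier3 0.489 and Jund 0.359. Jund was also the gene with the lowest detection. At the thinned depth the values for Junb (0.861) and Jund (0.34) were again the highest and the lowest. A single axis carried 57.5% of the variance of the 10 standardized ln levels, and the next carried 9.2%.

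**Figure D4:**
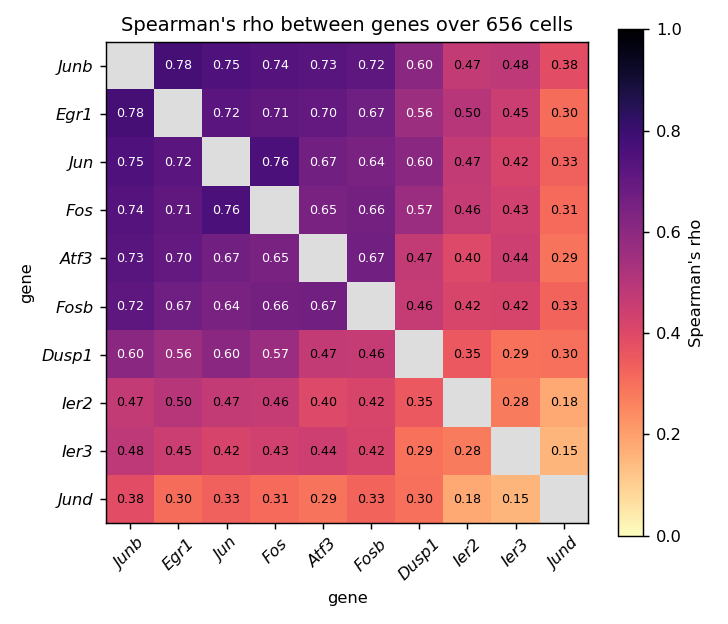
Colour and printed values give Spearman's rho between each pair of genes over cells, with genes ordered by their rho with the mean of the other 9. The block of Junb, Egr1, Jun, Fos, Atf3 and Fosb lies at or above 0.642, whereas the values of Jund run from 0.153 to 0.384.

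Measures of depth, cell quality and other cell types were set beside the early-gene mean. Its rho was -0.092 with reads per cell, 0.075 with detected genes and -0.247 with the mitochondrial share of reads. It was 0.088 with the mean of the 5 haematopoietic genes, -0.086 with that of the fibroblast genes, 0.029 with that of the mural genes, -0.048 with that of the glial genes and -0.134 with that of the blood endothelial genes. With the mitochondrial share removed from the ranks the median rho of the 45 pairs was 0.452, and without the cells that had a haematopoietic gene it was 0.473. The part of the tissue digestion in these levels was not tested.

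Outside the 10 genes, a small share of the genes rose with the early-gene mean. Of 5269 other genes of the minimum detection, 97 (1.84%) had a rho of at least 0.3 with the early-gene mean and 1 (0.019%) had a rho of -0.3 or less, and the median was 0.009. Zfp36, which encodes the protein that binds AU-rich elements and promotes decay of the messenger, was the closest at 0.816. It was followed by Socs3, a feedback inhibitor of cytokine signalling, at 0.755, Klf4, a zinc-finger factor of endothelial cells, at 0.751, and Ppp1r15a, a regulatory subunit of the phosphatase that reverses the stress arrest of translation, at 0.718. Ubb (0.544) encodes ubiquitin and may share reads with near-identical copies, Hspa8 (0.679) and Dnajb1 (0.527) encode chaperones, and Nfkbiz (0.647) encodes a regulator of NF-κB. Also among the 15 closest were Sertad1, Rgs16, Btg2, H3f3b, Klf2 and Csrnp1, from 0.663 to 0.529.

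By listed group, the rho with the early-gene mean was uneven. The groups were listed with earlier results of these data known. The counts in this and the following paragraphs therefore describe the lists, and nothing further is read from them. Of the other AP-1 and ATF genes, 6 of 12 were detected in at least 30% of cells and 4 of these had a rho of at least 0.3, namely Atf4 (0.498), Fosl2 (0.482), Maff (0.343) and Mafk (0.322). Of the other early transcription factors and regulators, 13 of the 18 in the table were detected that widely and 10 reached 0.3, with a median rho of 0.382. The orphan nuclear receptors Nr4a1 (0.436) and Nr4a2 (0.327) were among them, whereas Ctgf, a target of mechanical signalling, had -0.04.

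Feedback inhibitors and decay factors had a median rho of 0.34, with 8 of 13 at 0.3 or above. These included Nfkbia (0.524), the inhibitor of NF-κB, and Gadd45b (0.443). Of the other MAP kinase phosphatases, Dusp2 had 0.224 and Dusp6 0.152. Of the 12 heat shock genes, 7 of 12 reached 0.3, among them Hspa1a (0.332) and Hspa1b (0.337), which encode near-identical inducible chaperones and whose reads may be shared, while the mitochondrial chaperones Hspd1 (-0.009) and Hspe1 (-0.022) did not.

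As a group, the kinases and factors upstream of these genes were near genes at large at the messenger level. None of 14 reached 0.3, a mark that 1.84% of the 5269 genes reached, so nothing is read from that count. Their median was 0.028, against 0.009 for all genes tested. Srf, the serum response factor, had 0.158, the kinase Mapk3 had -0.032, and Elk3, a partner of Srf, had -0.203. Early cytokine and adhesion genes were mostly rare: only Icam1, an adhesion molecule for leukocytes, was detected in at least 30% of cells (82.01%, rho 0.369). Il6 was detected in 5.95%, Cxcl1 in 23.02% and Ccl2 in 17.68% of cells.

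At the other end of the order, the 5 genes with the lowest rho were Flt4 (-0.332), the receptor for VEGF-C, then Gm23935 (-0.298), mt-Cytb (-0.289), Mmrn1 (-0.284) and Sox18 (-0.280), an endothelial transcription factor. Of the 8 LEC identity genes, 7 had a rho below 0, as did 43.7% of all genes tested, and Prox1, the master regulator of lymphatic fate, was the exception at 0.131. All 16 mitochondrial genes tested were below 0, with a median of -0.132, whereas ribosomal protein genes had a median of -0.006. Each level is a share of the cell's reads, and with shares taken among the reads outside the 10 genes Flt4 had -0.31, 7 of the 8 identity genes and all 16 mitochondrial genes were again below 0, and Zfp36 had 0.82.

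The 10 genes differed modestly between lymphatic classes when the clustering followed the study's steps. The study regressed a score of dissociation-response genes before clustering. The score used here held all 10 genes, and these and the related lists were left out of the genes that defined the clusters. This gave 5 clusters, Ptx3+ capillary-like (35.7% of cells), precollecting-like (26.4%), Ptx3- capillary-like (10.4%), an unnamed cluster led by Tppp3, Fbln7 and Fndc1 (15.9%) and an unnamed cluster led by Fxyd2, Gdf15, Gdf10 and Neo1 (11.7%). The early-gene mean was 1.49 ± 0.90 (SD over cells) in the first, 1.76 ± 0.95 in the second and 1.496 ± 0.84 in the third, and 1.84 ± 0.87 and 1.73 ± 0.80 in the unnamed pair. These means lay within the spread of the cells, and each cluster held cells from the lower and the upper hump. The names are not exclusive. The precollecting-like cluster also had raised Gja4 and Clu, listed as downstream valve markers. Lyve1, listed as a precollecting marker, was raised in the cluster led by Tppp3. Cldn11, listed for both valve classes, was raised in that led by Fxyd2.

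For single genes, the highest and lowest cluster means differed by at least 0.5 ln for 4 of the 10 genes, against 4.33% of 4661 genes outside the variable genes. The 10 genes were chosen in part for their spread between cells, which favours large differences in ln between any groups of cells, so nothing is read from this count. Dusp1 had a mean of 2.22 in the cluster led by Tppp3 and 1.28 in the Ptx3- capillary-like cluster, a difference of 0.938. The cluster led by Tppp3 also had raised Fndc1 and Reln, which were listed as Ptx3- capillary markers. When each cell was instead given the class with its highest marker score, Dusp1 ran from 1.71 (Ptx3+ capillary) to 2.01 (precollecting). It was 1.75 in the Ptx3- capillary class, so the low value did not extend to that class as a whole. Atf3 had 2.52 in the cluster led by Fxyd2 and 1.72 in the Ptx3+ capillary-like cluster, Fos had 3.82 in the cluster led by Tppp3 and 3.05 in that led by Fxyd2, and Junb had 2.67 in the cluster led by Fxyd2 and 2.13 in the Ptx3- capillary-like cluster. Different genes thus peaked in different clusters of this setting, which regressed a score that holds all 10 genes. Without that regression each gene but Jund was highest in the same cluster, described below. Ier3 was highest in the precollecting-like cluster, at 1.34, and lowest in that led by Tppp3, at 0.843. The clusters carried a median of 2.39% of the variance of each of the 10 genes, at most 4.24% (Ier3), against a median of 1.03% for the other genes.

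Among the clusterings, that picture depended on the regression of the dissociation score. The classes by marker score, made without clustering or regression, gave a range similar to that of the main clusters, with early-gene means from 1.4 to 1.87. The lowest was Ptx3+ capillary and the highest downstream valve, for which no cluster was named. Downstream valve also had the highest class means of Fosb, Jun, Junb, Atf3, Egr1 and Ier2. The marker classes carried a median of 2.16% of the variance of the 10 genes, against 0.85% for the other genes. When clusters were made without regression of the dissociation score, still with the 10 genes and their companion lists left out, 1 of 5 stood apart. It held 20.1% of cells and was led by Rnd1, Clu, Adamts1 and Apoe, with an early-gene mean of 2.39, while the Ptx3+ capillary-like cluster, with 30.9% of cells, had 1.23. Between these 2 clusters Atf3 differed by 2.0 ln (3.30 ± 1.12 against 1.31 ± 1.36, SD over cells), Junb by 1.69, Fos by 1.67 and Fosb by 1.15, and Jund by 0.09. The clusters then carried a median of 14.9% of the variance of the 10 genes, against 1.17% for the other genes, and 21.3% for Atf3. Of the cells of the high cluster, 87 had been in the precollecting-like cluster, 23 in that led by Fxyd2, 11 in the Ptx3+ capillary-like, 7 in the Ptx3- capillary-like and 4 in that led by Tppp3. The high cluster had a median of 225444.5 reads and 1.39% mitochondrial reads per cell, and the Ptx3+ capillary-like cluster 164342 reads and 1.45%. Since the score holds the 10 genes, regressing it lowers their differences between clusters by construction. Conversely, genes outside the lists that follow the early-gene mean, such as Nfkbiz (0.647) and Rgs16 (0.637), were not left out. The high cluster was therefore not made independently of the 10 genes.

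**Figure D5:**
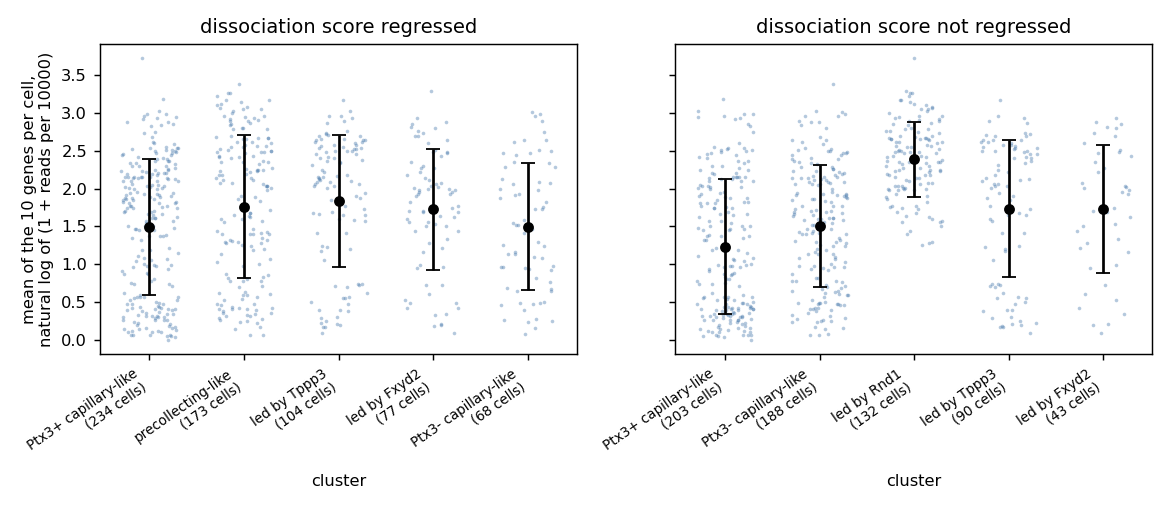
Points are cells, black circles and bars are the mean and SD over cells of the mean ln level of the 10 genes, for clusters made with (left) and without (right) regression of the dissociation score. The means run from 1.49 to 1.84 on the left, and from 1.23 to 2.39 on the right.

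The labels number the cells, and the cells fell into 12 blocks of 96 consecutive numbers, with 18 to 83 cells each. Whether a block was a plate is not given in the sources used here. The early-gene mean of a block ran from 1.25 in block 9 (20 cells, with a median of 2042788.5 reads) to 1.89 in block 4 (55 cells, 107457 reads). For 8 of the 10 genes the highest and lowest block means differed by at least 0.5 ln, against 8.96% of 5269 genes, and for the same reason nothing is read from that count. Dusp1, for example, had 1.13 in block 9 and 2.25 in block 4. The other deeply sequenced block, block 8 (18 cells, 2450279.5 reads), had an early-gene mean of 1.69. As a share of the variance the blocks carried a median of 2.41% for the 10 genes and 1.9% for the other genes. With the mean of each block removed the median rho of the 45 pairs was 0.475.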

How the data were processed

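Per the methods and the submitters' processing notes, the authors aligned Smart-seq3 reads to mm10 with STAR, counted them per gene with featureCounts (Subread), and processed the cells in Seurat 4.1.0. The deposited values, made by the authors, fit natural logs of reads per 10000 with 1 added, although the methods state a log2 scale: the exponential minus 1 summed to 10000 in each cell, and read as log2 to between 2848.7 and 4937.5. Taking the smallest value above 0 in a cell as 1 read, 100% of values were whole within 0.01 reads. Reads, not unique molecules, were counted. The labels describe 1152 cells, of which 656 were analysed here (568 after thinning).

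Correlations (rho) are Spearman's, over cells, for genes detected in at least 30% of them. No test was run, since the cells are 1 pool. Clusters were made in Seurat 5.3.0 (R 4.3.3) from 2000 variable genes and 15 principal components, at the lowest resolution with at least 5 clusters, and named when at least 3 class markers were raised 1.5-fold and led any other class. Wells received 1 cell each, and doublets were not called. The 10 genes, the companion lists and the dissociation list were chosen with earlier results of these data known. The text names the 10 genes, genes of those lists, and the 15 highest and 5 lowest in rho with the early-gene mean, and cluster-leading genes. Some genes that this rule names are not reported here. Gene models were GENCODE M21, where 22258 of 23168 symbols matched, with promoters from RefSeq. Thinning, rho and cluster spread were tested on simulated data (scipy 1.17.1, numpy 2.4.6). Alternatives covered depth, detection threshold, correlation measure, scale, clustering settings, blocks and cells left out.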

Additional observations from a re-analysis of the deposited data

How the results depend on the processing

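Cells with at least 8 of the 10 genes were 80.2% at full depth, 57.6% after thinning to 20000 reads, 34.5% with detection set at a value above 1 ln, and 85.98% when the 25% of cells lowest in gene number were left out. The median detection share over the genes moved likewise, from 93.4% to 75.4%, 63.9% and 95.2%. The median rho of the 45 pairs stayed between 0.452 and 0.486 under 10 alternatives, of which removal of the mitochondrial share and shares among other genes were chosen after seeing the data. The median difference between the highest and lowest cluster mean, 0.478 ln, became 1.24 without regression of the dissociation score, 1.142 with no regression, 1.08 with a larger set of variable genes and 1.392 at resolution 1.5, where 10 clusters, the smallest of 13 cells, were compared. It moved by less than 1.5 times under the other 7 alternatives. The median block difference, 0.749 ln, became 0.372 with neighbouring blocks merged in pairs and 1.138 with medians in place of means. It was 0.558 without blocks of fewer than 30 cells, an alternative also chosen after seeing the data. No paired analysis was possible because all cells belonged to 1 group. Thinning lowered the detection share of each of the 10 genes.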
